A study of Homo sapiens with 9 samples.

Results

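Extracellular matrix and matrix proteolysis genes were followed in HepG2, a human hepatocellular carcinoma line, as a set of 47 genes among the 62703 listed in each library. The genes were listed by symbol, and all 47 symbols were found: 28 matrix proteins, 4 cell-surface proteoglycans, 5 collagen-modifying enzymes and 10 genes of proteolysis (proteases, a protease receptor and inhibitors). RNA was sequenced from untreated cells (control) and from cells given eliglustat, an inhibitor of glucosylceramide synthase, at 20 µM or 30 µM for 72 h, with 3 libraries in each of the 3 groups. The labels give no time for the untreated cells. The series text also mentions a further incubation, and whether it applies to these libraries is not clear, so the total exposure may differ from the stated time. Every library comes from the same tumour line, whose matrix is made without the stromal cells of liver.

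Cells of an epithelium lay down a basement membrane, a sheet in which laminin trimers and networks of collagen IV are joined by nidogens and by the heparan sulphate proteoglycans perlecan (HSPG2) and agrin (AGRN). Hepatocytes also secrete soluble fibronectin (FN1) into plasma. Matrix is turned over by metalloproteinases, which the TIMP proteins inhibit, and by plasmin, which the activators urokinase (PLAU) and tissue plasminogen activator (PLAT) release from plasminogen.

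The libraries held 21103757 to 26782810 counts in genes. Of the 62703 genes, 17623 passed a filter on low counts and were tested, and 40 of the 47 matrix genes were among them. Levels below are CPM, counts scaled to a common library total with TMM factors. Each change is a log2 difference with its SE, from the edgeR quasi-likelihood model of all 9 libraries. Its p-value was adjusted by Benjamini-Hochberg across the 17623 genes, and a gene rose or fell only where the adjusted value was under 0.05. Separate cultures are not stated for the replicates, so the tests see only the variation among 3 libraries, which could be technical. Control 1, 20 µM library 3 and 30 µM library 3 deviated together from their group means (r = 0.331 to 0.352 across genes, described only). Without these 3 libraries, 17 matrix genes passed at 20 µM, 37 at 30 µM and 33 between the doses. Scaling by library size alone moved the median log2 change of all genes by -0.21 at 30 µM against control, so small changes at that dose are relative to the scaling used. Hepatocyte markers were present in every group, with 8 of 8 tested and a summed level of 11850 to 12280 CPM in controls, 13300 to 14110 CPM at 20 µM and 11660 to 12400 CPM at 30 µM. These 8 markers moved apart. At 30 µM against control ALB (log2 -0.47), AFP (-0.52), FGB (-0.36) and HNF4A (-0.23) fell, TTR (1.25) and SERPINA1 (0.23) rose, and TF and APOA1 were not past the test. Of 4 leukocyte markers none passed the filter, and PTPRC and MARCO were at 0 in all 9 libraries. The 4 summed to at most 0.0902 CPM in controls, 0.0408 CPM at 20 µM and 0.0825 CPM at 30 µM. Of 7 fibroblast and stellate markers 2 passed and COL1A2 and DCN were at 0 throughout, with summed levels of 33.9 to 40.8 CPM in controls, 34.6 to 36.5 CPM at 20 µM and 23.3 to 25.9 CPM at 30 µM. That sum was mostly ACTA2, which fell (21.5 ± 1.26 CPM at 30 µM, against 36.0 ± 3.26 CPM in controls), while PDGFRB rose (3.01 ± 0.324 CPM at 30 µM, against 0.854 ± 0.0820 CPM in controls; SD, n = 3 each; adjusted p = 1.58e-07). Of 4 endothelial markers 3 passed, none was at 0 throughout, and they summed to 4.49 to 5.54 CPM in controls, 4.82 to 6.34 CPM at 20 µM and 3.96 to 4.83 CPM at 30 µM. At 30 µM against control VWF rose (log2 2.57, adjusted p = 3.99e-07), and PECAM1 (-1.21, adjusted p = 6.33e-04) and CDH5 (-0.55, adjusted p = 0.0298, with overlapping groups) fell. The part of these marker changes in the results below was not tested.

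At 30 µM against control, 19 of the 40 tested matrix genes rose and 18 fell, with only COL18A1, MMP14 and PLAT not past the test. Fibronectin, thrombospondin (THBS1), syndecan-4 (SDC4) and the inhibitors TIMP1 and TIMP2 rose, while the cartilage-type collagens COL2A1 and COL27A1, syndecan-1 (SDC1) and the laminin chain LAMA3 fell. Of all genes tested, 60.8% passed at this dose, 29.5% upward and 31.3% downward. The 20 µM libraries differed less from control, with 14 matrix genes higher, 7 lower and 19 that did not pass, where 34.2% of all genes passed. From 20 µM to 30 µM, 18 were higher, 17 lower and 5 did not pass, where 57.0% of all genes passed. With library size alone that split was 13 higher and 20 lower, and the split at 30 µM against control was 14 higher and 19 lower. Matrix genes were past the test in larger shares than all genes (92.5% at 30 µM, 52.5% at 20 µM and 87.5% between the doses), as a description of a chosen list. The libraries of the compared groups did not overlap for 38 of the 40 between 30 µM and control (all genes, 65.0%), for 26 between 20 µM and control (44.5%), and for 35 between the doses (61.1%). The median log2 change of the tested matrix genes was 0.067 at 20 µM, 0.22 at 30 µM and 0.057 between the doses, beside 0.0087, -0.036 and -0.029 over all genes tested. For the matrix genes, the median at 30 µM against control was 0.16 with upper-quartile factors and 0.0091 with library size alone. The median between the doses was -0.020 and -0.14 with the same scalings. No matrix gene changed by 1 log2 unit or more at 20 µM, and 10 did at 30 µM. In bulk RNA, fewer cells that make a transcript and less of it per cell cannot be told apart.

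**Figure D1:**
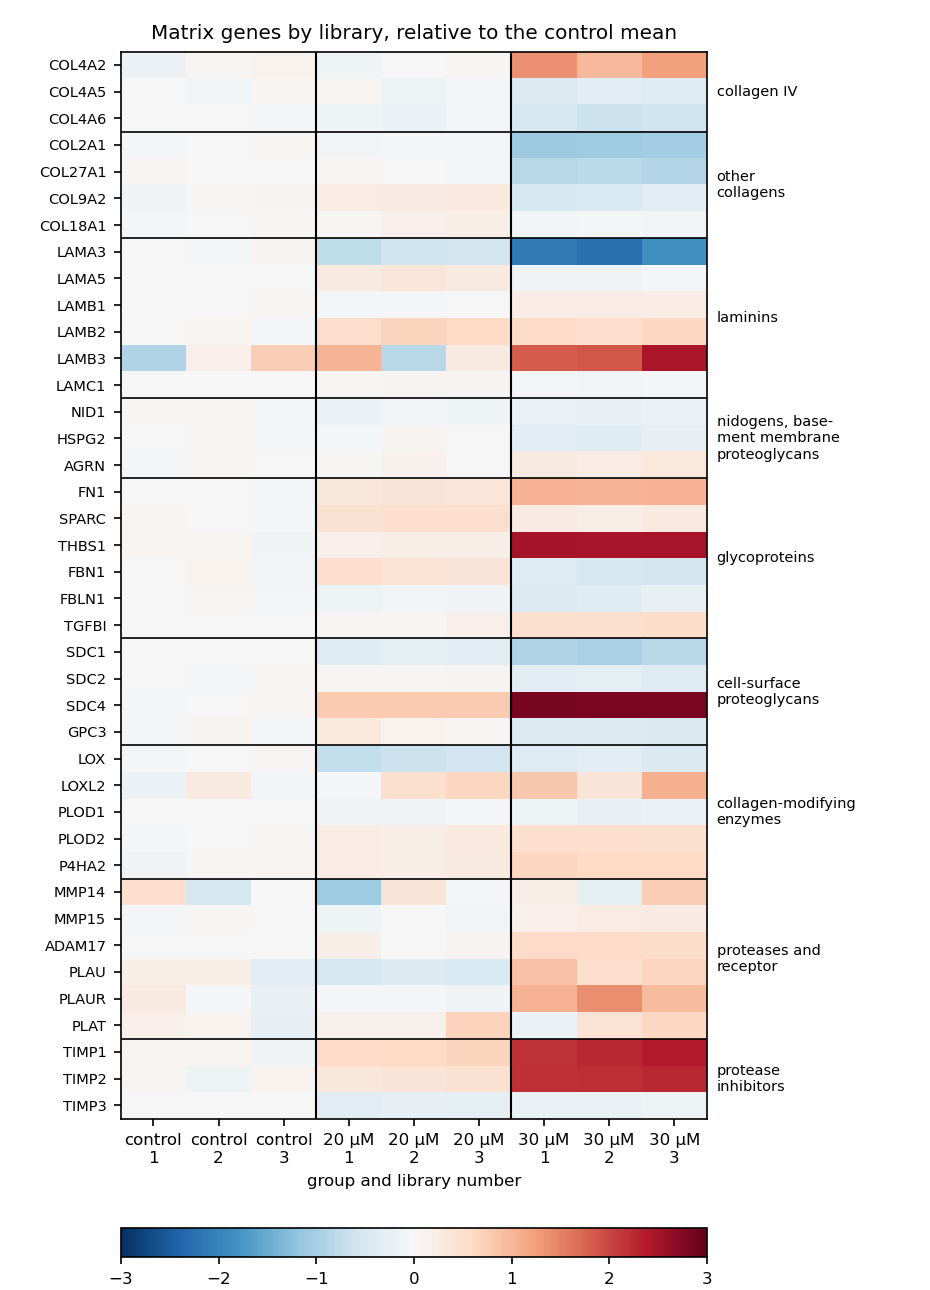
Each cell is log2(CPM + 0.1) of a tested matrix gene (rows, grouped by role) in a library (columns, 3 per group), minus that gene's control mean; red is higher and blue lower than control, with colours limited at 3 and -3. SDC4, THBS1, TIMP1 and TIMP2 are red in all 3 libraries at 30 µM, and LAMA3 is blue in all 6 treated libraries.

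Collagen IV forms the network of the basement membrane, and its genes lie in head-to-head pairs. COL4A1 and COL4A2, whose chains build the common network together, lie side by side on chromosome 13. COL4A2 stood at 2.51, 2.97 and 3.09 CPM in the control libraries, 2.61, 2.84 and 2.90 CPM at 20 µM and 7.55, 5.69 and 6.77 CPM at 30 µM. All 3 libraries at 30 µM lay above the 6 others, and the gene rose 2.33-fold at 30 µM against control (log2 1.22 ± 0.159, adjusted p = 4.12e-08). At 20 µM it was not past the test (log2 -0.039 ± 0.171, adjusted p = 0.900). Per length COL4A2 was low, at 0.148 CPM per kb of exon in controls, 0.144 at 20 µM and 0.346 at 30 µM. Its partner COL4A1 did not pass the filter, with counts of 0, 0 and 0 in the control libraries, 0, 1 and 0 at 20 µM and 4, 3 and 1 at 30 µM. The transcription starts of this pair are 127 bases apart and their promoter windows (250 bases before to 50 after the start, RefSeq on GRCh38.p14) share 226 bases, so they are shown together because a common stretch of DNA accompanies such unequal counts. Capitals mark the GC box letters GGGCGG on either strand. The COL4A2 window is chr13:110307034-110307333 on the plus strand and the COL4A1 window is chr13:110307108-110307407 on the minus strand.
COL4A2: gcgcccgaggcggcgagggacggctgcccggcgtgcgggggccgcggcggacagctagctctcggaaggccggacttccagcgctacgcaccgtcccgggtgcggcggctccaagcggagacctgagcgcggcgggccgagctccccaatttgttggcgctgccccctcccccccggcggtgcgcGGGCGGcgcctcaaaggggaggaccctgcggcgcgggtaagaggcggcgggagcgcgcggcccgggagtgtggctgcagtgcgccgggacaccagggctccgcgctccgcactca
COL4A1: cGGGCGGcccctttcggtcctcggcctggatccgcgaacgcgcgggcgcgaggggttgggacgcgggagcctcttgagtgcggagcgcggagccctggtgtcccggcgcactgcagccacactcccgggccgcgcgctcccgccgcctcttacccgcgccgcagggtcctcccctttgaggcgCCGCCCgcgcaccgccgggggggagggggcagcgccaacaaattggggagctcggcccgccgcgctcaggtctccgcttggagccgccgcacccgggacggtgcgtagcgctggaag

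COL4A5 and COL4A6, the pair on chromosome X whose chains join in a separate network, both fell at 30 µM. COL4A5 stood at 47.6, 44.3 and 48.9 CPM in the control libraries, 48.3, 41.97 and 45.4 CPM at 20 µM and 35.2, 37.7 and 35.7 CPM at 30 µM. It fell 1.30-fold at 30 µM against control (log2 -0.37 ± 0.0578, adjusted p = 1.02e-06). COL4A6 stood at 16.5, 16.4 and 15.8 CPM in the control libraries, 14.8, 14.4 and 15.5 CPM at 20 µM and 11.3, 10.4 and 10.7 CPM at 30 µM. It fell at 30 µM (log2 -0.58 ± 0.0845, adjusted p = 3.20e-07). For both genes the 30 µM libraries lay below all others, and neither was past the test at 20 µM (adjusted p = 0.519 and adjusted p = 0.287). Their starts are 380 bases apart and their promoter windows share 121 bases.

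Among the other collagens, 3 of 4 tested genes fell at 30 µM and none rose, where 31.3% of all genes fell and 29.5% rose. COL2A1, the fibrillar collagen of cartilage, was the most abundant collagen in CPM in controls and at 20 µM, but at 30 µM COL18A1 exceeded it. COL2A1 stood at 765, 777 and 794 CPM in the control libraries, 731, 758 and 745 CPM at 20 µM and 366, 371 and 379 CPM at 30 µM. The 30 µM libraries formed a separate low group, 2.09-fold below control (log2 -1.07 ± 0.0310, adjusted p = 1.18e-24), while 20 µM was not past the test (log2 -0.065 ± 0.0305, adjusted p = 0.0991) although its 3 libraries lay below the controls. COL27A1, a fibrillar collagen also known from cartilage, stood at 394, 379 and 381 CPM in the control libraries, 393, 379.5 and 377 CPM at 20 µM and 217, 223 and 209.8 CPM at 30 µM. It fell 1.78-fold at 30 µM (log2 -0.83 ± 0.0336, adjusted p = 1.03e-20) and at 20 µM overlapped the controls (adjusted p = 0.943). COL9A2, a chain of the collagen that coats type II fibrils, stood at 36.5, 40.4 and 41.6 CPM in the control libraries, 45.9, 46.6 and 48.2 CPM at 20 µM and 27.6, 28.5 and 31.5 CPM at 30 µM. It rose at 20 µM (log2 0.25 ± 0.0587, adjusted p = 0.00105) and fell at 30 µM (log2 -0.43 ± 0.0613, adjusted p = 2.13e-07), and the groups did not overlap in either comparison. COL18A1, a basement membrane collagen and the precursor of endostatin, stood at 419.6, 436 and 445 CPM in the control libraries, 445, 478 and 489 CPM at 20 µM and 408, 418 and 411 CPM at 30 µM. It rose at 20 µM (log2 0.12 ± 0.0345, adjusted p = 0.00680), where the groups overlapped and the call was lost without control 1 (adjusted p = 0.0517) or 20 µM 3 (0.0870), or without the 3 libraries that deviate together (0.231). At 30 µM it was not past the test (log2 -0.071 ± 0.0346, adjusted p = 0.0752), but was lower without control 1 (adjusted p = 0.0309) or 20 µM 1 (0.0374), or without the 3 libraries (0.0371). It was also lower with library size alone (log2 -0.28, adjusted p = 6.88e-09), with upper-quartile factors (log2 -0.13, 0.00122) and among genes of at least 50 counts on average (0.0296). Of its exon bases, 16.4% lie opposite exons of SLC19A1 on the other strand, and the strand setting of the counting is not given.

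Laminins are trimers of an alpha, a beta and a gamma chain. The abundant chains in these cells were LAMA5, LAMB1, LAMB2 and LAMC1, and the chains of the epithelial anchoring laminin, LAMA3 and LAMB3, were low. LAMA3 stood at 11.1, 10.9 and 11.8 CPM in the control libraries, 6.65, 7.43 and 7.59 CPM at 20 µM and 2.50, 2.31 and 3.06 CPM at 30 µM. Every 20 µM library lay below every control and every 30 µM library below every 20 µM library, with falls of 1.56-fold (log2 -0.64 ± 0.114, adjusted p = 2.82e-05) and 4.29-fold (log2 -2.10 ± 0.131, adjusted p = 1.13e-15) against control. LAMB3, its partner chain, had counts of 1, 4 and 9 in the control libraries, 11, 1 and 5 at 20 µM and 17, 20 and 31 at 30 µM. It rose at 30 µM (log2 2.39 ± 0.554, adjusted p = 3.89e-04) with no overlap, but its level remained at 0.787, 0.825 and 1.28 CPM, and at 20 µM it was not past the test (adjusted p = 0.772).

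The LAMA3 promoter window is shown because this gene had the largest fall of the set and the window holds 2 matches to the AP-1 letters TGANTCA, in capitals with a GC box (the letters GGGCGG on either strand). It belongs to an internal start within the gene, at chr18:23872770-23873069 on the plus strand (RefSeq, GRCh38.p14).
LAMA3: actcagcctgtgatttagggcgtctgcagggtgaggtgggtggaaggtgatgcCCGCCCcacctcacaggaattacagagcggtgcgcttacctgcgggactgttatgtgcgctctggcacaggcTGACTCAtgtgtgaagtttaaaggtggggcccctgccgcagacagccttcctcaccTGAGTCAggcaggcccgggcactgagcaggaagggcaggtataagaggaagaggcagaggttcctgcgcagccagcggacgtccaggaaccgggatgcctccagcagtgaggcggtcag

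LAMB2 stood at 171, 179 and 168 CPM in the control libraries, 249, 275 and 259 CPM at 20 µM and 256, 249.6 and 265 CPM at 30 µM. Both doses lay above the controls, 1.51-fold at 20 µM (log2 0.60 ± 0.0381, adjusted p = 3.10e-14) and 1.49-fold at 30 µM (log2 0.57 ± 0.0382, adjusted p = 6.48e-15), and the difference between the doses was not past the test (log2 -0.024 ± 0.0377, adjusted p = 0.613). It was lower at 30 µM than at 20 µM with upper-quartile factors (log2 -0.10, adjusted p = 0.0218) and with library size alone (log2 -0.22, adjusted p = 4.43e-06). LAMB1, the alternative beta chain, stood at 441, 447 and 455 CPM in the control libraries, 428, 436 and 447 CPM at 20 µM and 523, 524 and 522 CPM at 30 µM. It rose at 30 µM (log2 0.22 ± 0.0308, adjusted p = 1.12e-07), but with library size alone it was not past the test (log2 0.015, adjusted p = 0.688), and at 20 µM it was not past the test (adjusted p = 0.435). LAMA5, the alpha chain that pairs with either beta chain, stood at 874, 892 and 870.0 CPM in the control libraries, 1055, 1136 and 1062 CPM at 20 µM and 816, 822 and 842 CPM at 30 µM. It rose at 20 µM (log2 0.30 ± 0.0317, adjusted p = 2.10e-09) and was lower at 30 µM by a small margin (log2 -0.088 ± 0.0318, adjusted p = 0.0175). The second call was lost without control 2 (adjusted p = 0.0805), 30 µM 1 (0.0854) or 30 µM 2 (0.0614), and with median-ratio scaling (0.0976). LAMC1, the shared gamma chain, ranged from 416 to 426 CPM in controls, 435 to 444 CPM at 20 µM and 394 to 404 CPM at 30 µM. At 20 µM it was not past the test (log2 0.070 ± 0.0306, adjusted p = 0.0760), although every library lay above the controls. It was higher there with upper-quartile factors (adjusted p = 0.0296) and among genes of at least 50 counts on average (0.0359). Its fall at 30 µM (log2 -0.070 ± 0.0307, adjusted p = 0.0482) was lost with the replicate number as a block (0.0655) and without control 1 (adjusted p = 0.0621), control 2 (0.163), 30 µM 1 (0.0935), 30 µM 2 (0.160) or 30 µM 3 (0.0668). This call was also lost with median-ratio scaling (adjusted p = 0.213), no low-count filter (0.263) and only the groups compared (0.104).

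Among the linkers of the basement membrane, NID1 and HSPG2 fell at 30 µM and AGRN rose. NID1, which ties laminin to collagen IV, stood at 457, 452 and 423 CPM in the control libraries, 394, 419 and 408 CPM at 20 µM and 386, 382 and 395 CPM at 30 µM. It fell at 20 µM (log2 -0.12 ± 0.0340, adjusted p = 0.00406) and at 30 µM (log2 -0.20 ± 0.0341, adjusted p = 7.21e-06), with both treated groups below all controls. HSPG2 stood at 190.2, 192 and 184 CPM in the control libraries, 183, 198 and 188 CPM at 20 µM and 150.4, 147 and 158 CPM at 30 µM. It fell at 30 µM (log2 -0.31 ± 0.0382, adjusted p = 1.06e-08) and at 20 µM overlapped the controls (adjusted p = 0.926). Exons on the other strand overlap 11.7% of its exon bases. AGRN stood at 232, 244 and 239 CPM in the control libraries, 245, 259 and 239 CPM at 20 µM and 285, 278 and 295 CPM at 30 µM. AGRN rose at 30 µM (log2 0.26 ± 0.0359, adjusted p = 1.03e-07), but with library size alone it was not past the test (adjusted p = 0.195). Of 12 tested basement membrane genes (collagen IV, laminins, nidogens and their proteoglycans), 5 rose and 7 fell at 30 µM (median log2 -0.079). At 20 µM, 2 rose and 2 fell (median -0.014). Over all genes tested, 29.5% rose and 31.3% fell at 30 µM, and 17.2% rose and 16.9% fell at 20 µM.

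Fibronectin, the adhesive glycoprotein that integrins bind, was the most abundant matrix transcript in every library. FN1 stood at 8237, 8237 and 7869 CPM in the control libraries, 10191, 10529 and 10461 CPM at 20 µM and 16686, 16436 and 16773 CPM at 30 µM. The 3 groups did not overlap, and the gene rose 1.28-fold at 20 µM (log2 0.36 ± 0.0279, adjusted p = 3.37e-12) and 2.05-fold at 30 µM (log2 1.04 ± 0.0281, adjusted p = 1.62e-25), each against control, and 1.60-fold from the lower to the higher dose (log2 0.68 ± 0.0279, adjusted p = 2.99e-20). It held 55.5 ± 0.634% of the summed CPM of the 47 genes for controls, 60.3 ± 0.0966% at 20 µM and 72.2 ± 0.168% at 30 µM (SD over 3 libraries). The summed level of all 47 was 14614 ± 226 CPM in controls, 17247 ± 305 CPM at 20 µM and 23036 ± 233 CPM at 30 µM. Without FN1 it was 6499.8 ± 40.2 CPM, 6853 ± 128 CPM and 6404 ± 73.2 CPM in the same order, so the rise of the sum at 30 µM lay in this gene.

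THBS1, a secreted glycoprotein that activates latent TGF-beta, stood at 25.1, 25.2 and 22.5 CPM in the control libraries, 26.96, 27.4 and 27.3 CPM at 20 µM and 138, 136 and 135 CPM at 30 µM. The 30 µM libraries stood far above the others, 5.62-fold over control (log2 2.49 ± 0.0499, adjusted p = 3.36e-29). At 20 µM the rise was small (log2 0.17 ± 0.0545, adjusted p = 0.0156) and was lost without control 3 (adjusted p = 0.154), where the log2 change was 0.11. SPARC, a collagen-binding matricellular protein, stood at 232, 226 and 214 CPM in the control libraries, 309.9, 316 and 319.8 CPM at 20 µM and 266, 256 and 274 CPM at 30 µM. Its highest levels were at 20 µM (log2 0.49 ± 0.0355, adjusted p = 5.11e-13), and at 30 µM it was also above control (log2 0.24 ± 0.0356, adjusted p = 4.05e-07) but below 20 µM (log2 -0.25 ± 0.0353, adjusted p = 2.51e-07). With library size alone the 30 µM value was not past the test (adjusted p = 0.413). FBN1, the main protein of microfibrils, stood at 16.5, 18.03 and 15.6 CPM in the control libraries, 23.9, 22.3 and 21.9 CPM at 20 µM and 12.7, 11.9 and 11.4 CPM at 30 µM. It rose at 20 µM (log2 0.45 ± 0.0777, adjusted p = 2.13e-05) and fell at 30 µM (log2 -0.48 ± 0.0829, adjusted p = 7.49e-06), and no library of either dose overlapped the controls.

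TGFBI, an adhesion protein named for its induction by TGF-beta, stood at 175, 173 and 175 CPM in the control libraries, 179, 182 and 194 CPM at 20 µM and 243, 245 and 256 CPM at 30 µM. It rose at 30 µM (log2 0.51 ± 0.0363, adjusted p = 3.88e-14). At 20 µM it lay above the controls in all 3 libraries without passing the test (log2 0.089 ± 0.0365, adjusted p = 0.0593), and passed it without 20 µM 1 (adjusted p = 0.0286). It also passed there with upper-quartile factors (adjusted p = 0.0264) and among genes of at least 50 counts on average (0.0311). FBLN1, a glycoprotein of basement membranes and elastic fibres, ranged from 166 to 176 CPM in controls, 155 to 162 CPM at 20 µM and 129.7 to 146 CPM at 30 µM. It fell at 30 µM (log2 -0.33 ± 0.0408, adjusted p = 1.17e-08). The smaller fall at 20 µM (log2 -0.11 ± 0.0404, adjusted p = 0.0284) was lost without control 1 (adjusted p = 0.0853), control 2 (0.135), 20 µM 1 (0.108) or 20 µM 3 (0.0592), or without the 3 libraries that deviate together (0.0672).

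Cell-surface proteoglycans carry heparan sulphate chains that bind matrix proteins and growth factors, and within this family the syndecans moved apart. SDC4, the syndecan of focal adhesions, stood at 51.97, 53.96 and 56.8 CPM in the control libraries, 93.5, 93.1 and 94.2 CPM at 20 µM and 388, 388 and 387 CPM at 30 µM. The groups were far apart and each spread over a few CPM, with rises of 1.73-fold at 20 µM (log2 0.79 ± 0.0390, adjusted p = 7.23e-17) and 7.14-fold at 30 µM (log2 2.84 ± 0.0387, adjusted p = 8.79e-34), the largest of the set. SDC1, the main syndecan of epithelia and of hepatocytes, stood at 238, 242 and 239 CPM in the control libraries, 183, 199 and 191 CPM at 20 µM and 128, 122 and 134 CPM at 30 µM. It fell at 20 µM (log2 -0.33 ± 0.0380, adjusted p = 1.70e-08) and at 30 µM (log2 -0.90 ± 0.0388, adjusted p = 4.93e-20), each dose below the last with no overlap. SDC2 stood at 271, 263 and 279 CPM in the control libraries, 282, 280.2 and 288 CPM at 20 µM and 217, 220.3 and 208 CPM at 30 µM. It was not past the test at 20 µM (adjusted p = 0.151) and fell at 30 µM (log2 -0.33 ± 0.0345, adjusted p = 3.31e-10). In controls SDC4 was the lowest per length of the 3 syndecans in the set, which leaves out SDC3 (20.8 CPM per kb of exon, against 59.7 for SDC2 and 66.6 for SDC1). At 30 µM SDC4 was the highest of them (148 CPM per kb, against 47.4 for SDC2 and 35.6 for SDC1).

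GPC3, a glypican known as a marker of hepatocellular carcinoma, stood at 39.6, 42.5 and 39.3 CPM in the control libraries, 50.6, 43.5 and 41.4 CPM at 20 µM and 30.5, 30.5 and 30.1 CPM at 30 µM. It fell at 30 µM (log2 -0.41 ± 0.0637, adjusted p = 1.09e-06). Its rise at 20 µM (log2 0.16 ± 0.0614, adjusted p = 0.0400), where the groups overlapped, was lost without control 1 (adjusted p = 0.115), control 3 (0.142), 20 µM 1 (0.421), 30 µM 1 (0.0549) or 30 µM 2 (0.0517). Without 20 µM library 1 the log2 change was 0.071, and the rise was also lost with library size alone (adjusted p = 0.0735).

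The promoter window of SDC4 is shown because this gene had the largest rise and the window holds 8 GC box matches, in capitals (GGGCGG on either strand, overlaps counted). It lies at chr20:45348375-45348674 on the minus strand (RefSeq, GRCh38.p14).
SDC4: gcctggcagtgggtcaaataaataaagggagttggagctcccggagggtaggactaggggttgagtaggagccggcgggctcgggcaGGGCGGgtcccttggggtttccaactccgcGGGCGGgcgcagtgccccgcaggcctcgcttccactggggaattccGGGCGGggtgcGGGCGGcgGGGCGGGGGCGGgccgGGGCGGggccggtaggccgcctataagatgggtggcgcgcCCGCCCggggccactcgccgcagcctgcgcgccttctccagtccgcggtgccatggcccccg

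**Figure D2:**
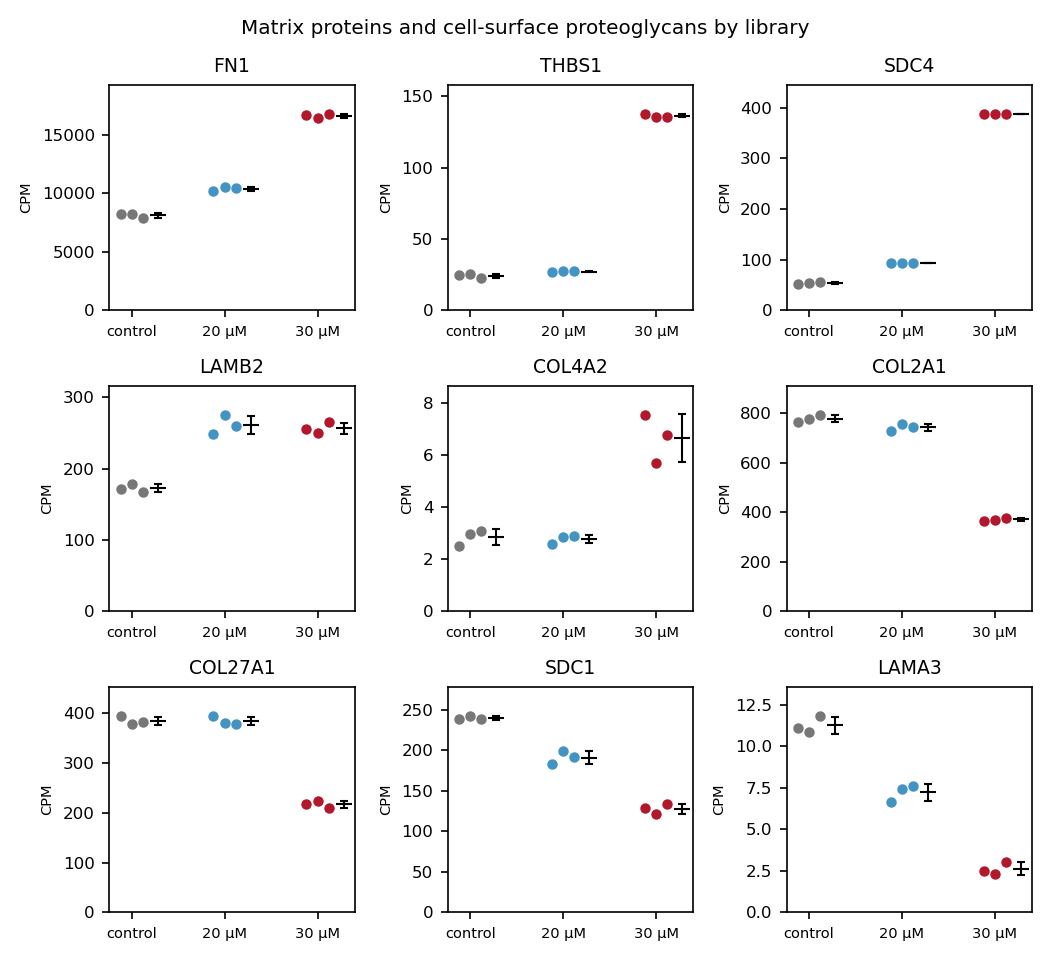
Points are CPM of each library for 9 matrix and cell-surface genes, by group (control, 20 µM, 30 µM), and bars beside them are the mean ± SD (n = 3); each vertical axis starts at 0. FN1 and SDC4 are higher at each dose, SDC1 and LAMA3 are lower at each dose, and COL2A1 and COL27A1 are low at 30 µM.

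Enzymes that modify collagen also differed among themselves. LOX, which cross-links collagen and elastin, stood at 46.7, 48.4 and 49.8 CPM in the control libraries, 28.8, 30.7 and 32.6 CPM at 20 µM and 36.6, 38.3 and 35.97 CPM at 30 µM. It fell at 20 µM (log2 -0.65 ± 0.0567, adjusted p = 3.79e-11) and less at 30 µM (log2 -0.39 ± 0.0561, adjusted p = 3.53e-07). The 30 µM libraries lay above the 20 µM ones (log2 0.27 ± 0.0581, adjusted p = 1.89e-04), a difference not past the test with library size alone (adjusted p = 0.282). PLOD2, the lysyl hydroxylase that acts on collagen telopeptides, stood at 122, 124 and 128 CPM in the control libraries, 146, 142 and 152 CPM at 20 µM and 176, 176 and 173 CPM at 30 µM. It rose at 20 µM (log2 0.24 ± 0.0371, adjusted p = 4.42e-06) and at 30 µM (log2 0.49 ± 0.0370, adjusted p = 1.75e-13), with no overlap between any groups. PLOD1, another lysyl hydroxylase, stood at 116, 116 and 116 CPM in the control libraries, 108, 107 and 111 CPM at 20 µM and 104, 100.2 and 103 CPM at 30 µM. It fell at 30 µM (log2 -0.18 ± 0.0382, adjusted p = 1.04e-04), and at 20 µM was not past the test (log2 -0.091 ± 0.0379, adjusted p = 0.0614) but was lower without 20 µM 3 (adjusted p = 0.0478).

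P4HA2, a catalytic subunit of collagen prolyl hydroxylase, stood at 17.2, 18.98 and 19.3 CPM in the control libraries, 21.4, 21.3 and 22.2 CPM at 20 µM and 28.8, 27.97 and 27.7 CPM at 30 µM. P4HA2 rose at 30 µM (log2 0.61 ± 0.0678, adjusted p = 1.56e-09). Its rise at 20 µM (log2 0.23 ± 0.0689, adjusted p = 0.00929) was lost without control 1 (adjusted p = 0.0803), or without the 3 libraries that deviate together (0.182). LOXL2, a lysyl oxidase relative, was near the detection limit at 0.466, 0.676 and 0.503 CPM in the control libraries, 0.529, 0.793 and 0.898 CPM at 20 µM and 1.02, 0.742 and 1.24 CPM at 30 µM. Its rise at 30 µM (log2 0.87 ± 0.360, adjusted p = 0.0357) was lost without control 1 (adjusted p = 0.112), control 3 (0.0977), 30 µM 1 (0.0730) or 30 µM 3 (0.163), or without the 3 libraries that deviate together (0.286, log2 0.58). That rise was also lost with library size alone (adjusted p = 0.106), upper-quartile factors (0.0502) and no low-count filter (0.0604).

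On the side of proteolysis, 4 of 6 tested genes of the proteases and their receptor rose at 30 µM, and none fell. Over all genes tested, 29.5% rose and 31.3% fell at this dose. At 20 µM only PLAU was past the test. MMP15, a metalloproteinase anchored in the membrane, was the most abundant, at 162, 173 and 169 CPM in the control libraries, 155, 168 and 159 CPM at 20 µM and 188, 197 and 199 CPM at 30 µM. It rose at 30 µM (log2 0.21 ± 0.0382, adjusted p = 1.10e-05), but with library size alone it was not past the test (adjusted p = 0.945), and at 20 µM it overlapped the controls (adjusted p = 0.187). ADAM17, the sheddase of TNF and of EGF receptor ligands, stood at 70.7, 71.2 and 72.2 CPM in the control libraries, 79.97, 72.2 and 75.5 CPM at 20 µM and 106, 106 and 105 CPM at 30 µM. ADAM17 rose at 30 µM (log2 0.57 ± 0.0429, adjusted p = 1.57e-13), was not past the test at 20 µM (log2 0.090 ± 0.0434, adjusted p = 0.113), and there was higher without 20 µM 2 (adjusted p = 0.0326). Exons on the other strand overlap 13.6% of its exon bases. MMP14, the membrane-bound collagenase that activates MMP2 in other cells, stood at 0.646, 0.27 and 0.431 CPM in the control libraries, 0.151, 0.585 and 0.408 CPM at 20 µM and 0.509, 0.33 and 0.785 CPM at 30 µM. Its groups overlapped, and no comparison was past the test (adjusted p = 0.728 at 20 µM, adjusted p = 0.684 at 30 µM).

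PLAU, the plasminogen activator urokinase, stood at 3.55, 3.56 and 2.48 CPM in the control libraries, 2.15, 2.34 and 2.29 CPM at 20 µM and 5.88, 4.62 and 5.00 CPM at 30 µM. It was lower at 20 µM (log2 -0.50 ± 0.184, adjusted p = 0.0347) and higher at 30 µM (log2 0.69 ± 0.171, adjusted p = 6.86e-04), with no overlap with control in either. The difference between the doses was 2.28-fold (log2 1.19 ± 0.178, adjusted p = 6.93e-07). The call at 20 µM was lost without control 1 (adjusted p = 0.151), control 2 (0.140), 20 µM 1 (0.0951), 20 µM 2 (0.0629) or 20 µM 3 (0.0669), and without the 3 libraries that deviate together (0.187). Of its exon bases, 31.1% lie opposite exons of C10orf55, so its counts are uncertain. PLAUR, the receptor that holds urokinase at the cell surface, stood at 2.22, 1.76 and 1.55 CPM in the control libraries, 1.77, 1.75 and 1.67 CPM at 20 µM and 3.84, 4.95 and 3.59 CPM at 30 µM. It rose 2.24-fold at 30 µM (log2 1.16 ± 0.201, adjusted p = 6.59e-06) and was not past the test at 20 µM (adjusted p = 0.805). PLAT stood at 0.897, 0.856 and 0.647 CPM in the control libraries, 0.868, 0.877 and 1.35 CPM at 20 µM and 0.694, 1.11 and 1.28 CPM at 30 µM, with overlapping groups (adjusted p = 0.438 at 20 µM, adjusted p = 0.343 at 30 µM).

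TIMP1 and TIMP2, inhibitors of metalloproteinases, rose together, while TIMP3, the matrix-bound member that also inhibits ADAM17, fell. TIMP1 stood at 10.4, 10.3 and 9.16 CPM in the control libraries, 14.95, 15.1 and 15.96 CPM at 20 µM and 45.00, 47.9 and 52.1 CPM at 30 µM. It rose 1.54-fold at 20 µM (log2 0.62 ± 0.0801, adjusted p = 1.30e-07) and 4.86-fold at 30 µM (log2 2.28 ± 0.0739, adjusted p = 2.32e-23). TIMP2 stood at 8.64, 7.39 and 8.84 CPM in the control libraries, 10.5, 10.8 and 11.3 CPM at 20 µM and 38.4, 38.4 and 40.01 CPM at 30 µM. It rose 1.30-fold at 20 µM (log2 0.38 ± 0.0863, adjusted p = 5.86e-04) and 4.67-fold at 30 µM (log2 2.22 ± 0.0785, adjusted p = 2.30e-22). In both genes every library of a higher dose lay above every library of the lower one. TIMP3 stood at 207, 209 and 208 CPM in the control libraries, 167, 174 and 169.9 CPM at 20 µM and 182, 180.0 and 188 CPM at 30 µM. It fell at 20 µM (log2 -0.29 ± 0.0346, adjusted p = 3.57e-08) and at 30 µM (log2 -0.18 ± 0.0346, adjusted p = 2.59e-05), with both treated groups below all controls. Between the doses TIMP3 was slightly higher at 30 µM (log2 0.10 ± 0.0348, adjusted p = 0.0105), but lower with library size alone (log2 -0.089). The call was lost with upper-quartile factors (log2 0.029, adjusted p = 0.51). It was also lost without 20 µM 1 (adjusted p = 0.0564) or 30 µM 3 (0.0529), or without the 3 libraries that deviate together (0.101). Per length, TIMP3 was the most abundant of the 3 in each group. In controls it was at 45.2 CPM per kb, against 6.46 for TIMP1 and 1.47 for TIMP2. At 30 µM it was at 39.8 CPM per kb, against 31.4 for TIMP1 and 6.91 for TIMP2.

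The promoter windows of TIMP1 and PLAUR are shown because both genes rose by over 1 log2 unit at 30 µM. PLAUR held the only AP-1 match (TGANTCA, capitals) among the windows of genes that rose there, and TIMP1 held none but 2 GC boxes (capitals). TIMP1 lies at chrX:47582186-47582485 on the plus strand and PLAUR at chr19:43670120-43670419 on the minus strand (RefSeq, GRCh38.p14).
TIMP1: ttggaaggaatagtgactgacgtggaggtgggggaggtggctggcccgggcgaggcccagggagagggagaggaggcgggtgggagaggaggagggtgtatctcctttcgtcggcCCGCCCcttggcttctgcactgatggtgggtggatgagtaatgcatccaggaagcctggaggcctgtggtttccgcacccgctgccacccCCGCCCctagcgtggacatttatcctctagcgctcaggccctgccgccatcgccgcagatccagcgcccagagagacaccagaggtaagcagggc
PLAUR: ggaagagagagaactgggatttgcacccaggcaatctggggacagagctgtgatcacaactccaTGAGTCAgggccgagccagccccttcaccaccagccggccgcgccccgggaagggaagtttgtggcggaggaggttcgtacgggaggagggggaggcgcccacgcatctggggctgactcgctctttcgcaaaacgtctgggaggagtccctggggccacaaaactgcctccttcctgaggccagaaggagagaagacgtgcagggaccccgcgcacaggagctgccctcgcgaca

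**Figure D3:**
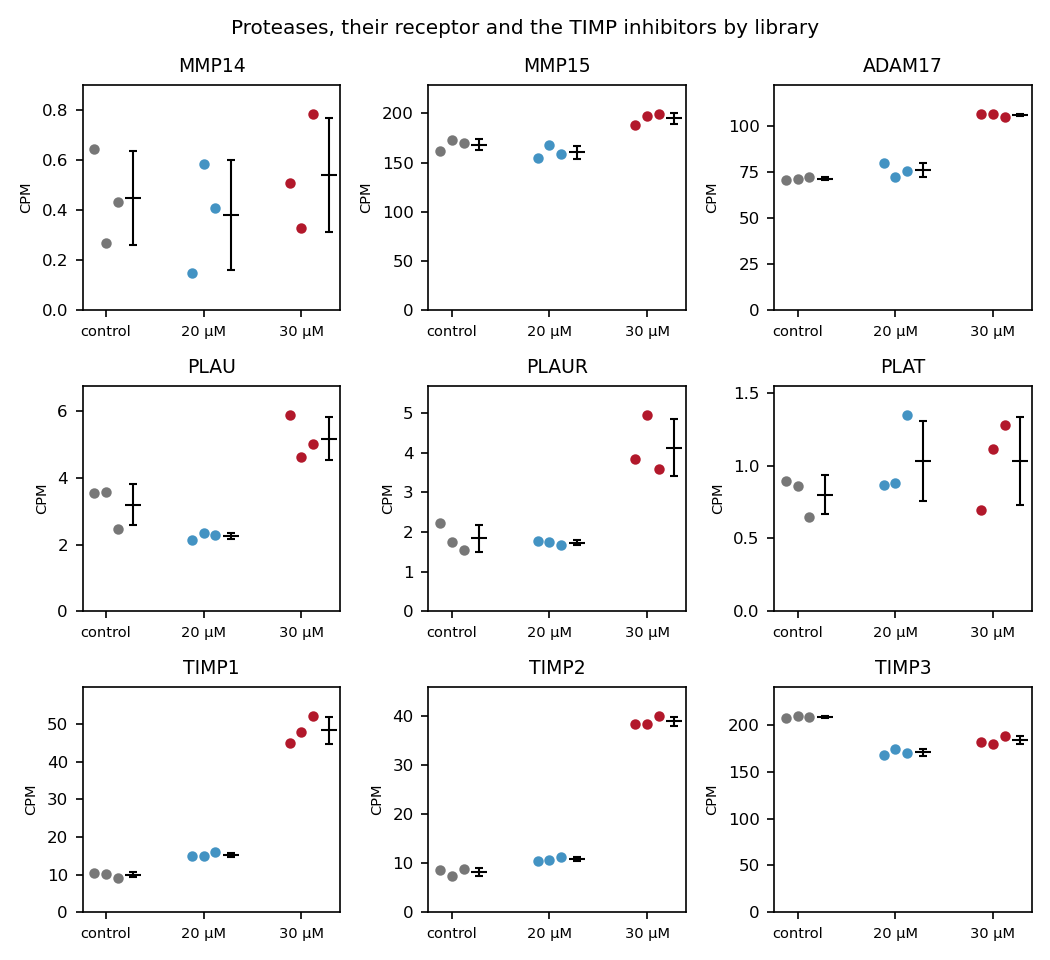
Points are CPM of each library for 6 genes of the proteases and their receptor and for the 3 TIMP inhibitors, by group (control, 20 µM, 30 µM), and bars beside them are the mean ± SD (n = 3); each vertical axis starts at 0. TIMP1 and TIMP2 climb with dose, TIMP3 is below control at both doses, and MMP14 and PLAT overlap between groups.

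Set side by side, proteolysis genes (proteases, receptor and inhibitors) had 6 of 9 tested members higher, 1 lower and 2 not past the test at 30 µM against control, with a median log2 change of 0.57. Matrix proteins had 9 of 22 higher, 12 lower and 1 not past the test, with a median of -0.080. At 20 µM, proteolysis genes had 2 higher, 2 lower and 5 not past the test (median -0.067), and matrix proteins had 8 higher, 3 lower and 11 not past the test (median 0.064). Between the doses, 7 of 9 proteolysis genes were higher at 30 µM and none lower, and 7 of 22 matrix proteins were higher and 13 lower. Across the 17623 genes tested, 29.5% rose and 31.3% fell at 30 µM against control (median log2 -0.036). The shares at 20 µM were 17.2% and 16.9% (median 0.0087). From 20 µM to 30 µM, 4942 of the 17623 were higher and 5099 lower (median -0.029). The listed matrix proteins both rose and fell in larger shares than all genes at 30 µM against control. This describes a list chosen with earlier results of these data known, not matrix proteins in general. The summed CPM of proteases and receptor was 246 ± 5.51 for controls, 242 ± 2.99 at 20 µM and 312 ± 5.31 at 30 µM (SD over 3 libraries). The summed CPM of the TIMP genes was 226 ± 0.514 in controls, 197 ± 3.80 at 20 µM and 271 ± 8.40 at 30 µM. The difference between the 2 classes was not tested.

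**Figure D4:**
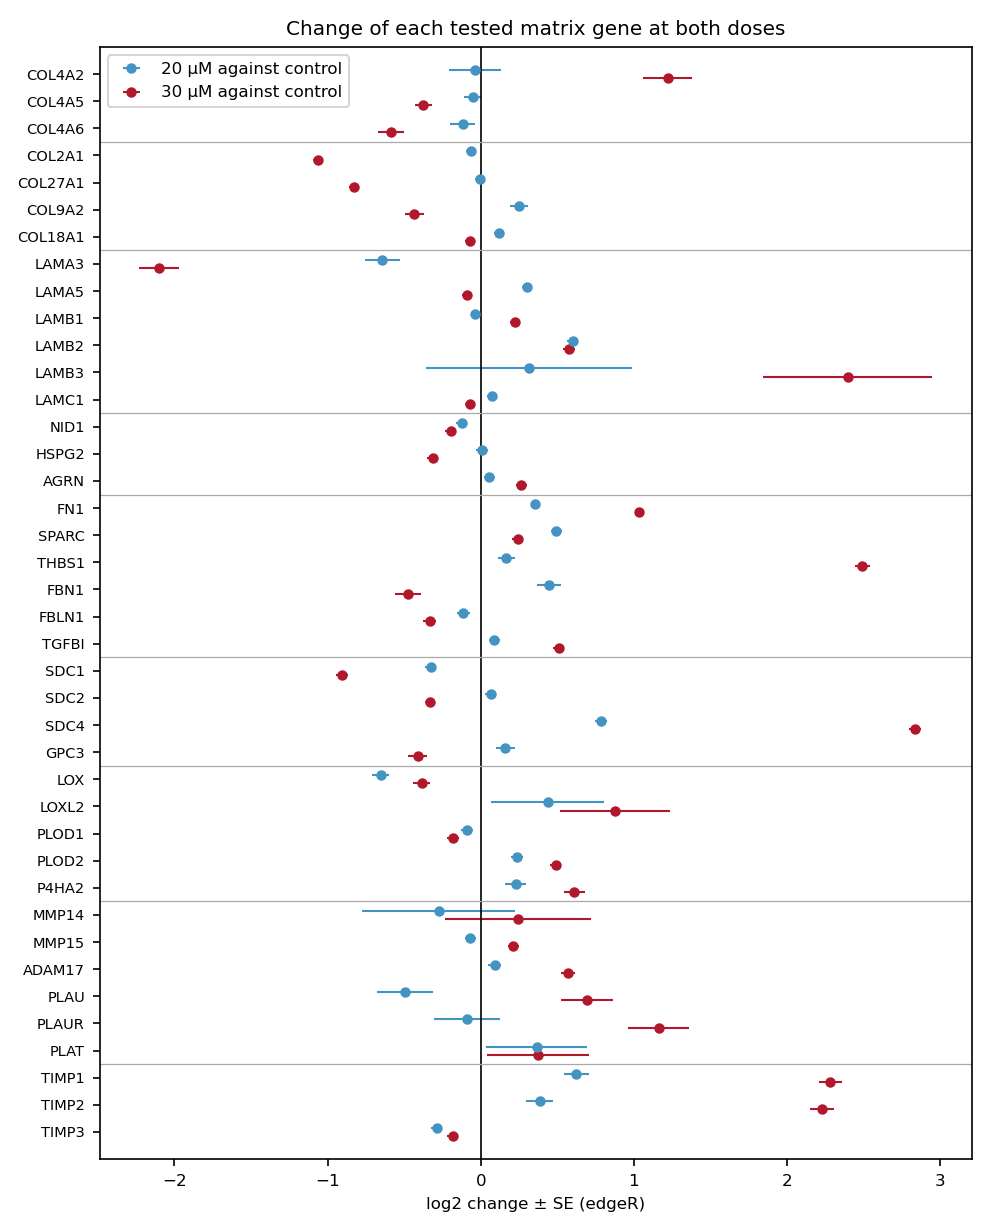
Points are the log2 change of each of the 40 tested matrix genes against control, with SE as bars, in blue for 20 µM and red for 30 µM; lines separate the roles in the order of the heat map. SDC4 has the largest rise (2.84) and LAMA3 the largest fall (-2.10) at 30 µM, and COL9A2, LAMA5, FBN1, GPC3 and PLAU passed the test on opposite sides of 0 at the 2 doses.

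Levels per length spanned several orders of magnitude. Averaged over the 9 libraries, FN1 was at 676 CPM per kb of exon (GENCODE 29), followed by COL2A1 at 94.8, NID1 at 70.4, SDC4 at 68.3 and LAMA5 at 65.1 CPM per kb. The tested genes with the lowest levels were MMP14 at 0.102 and LAMB3 at 0.0970 CPM per kb. Since the annotation used in the counting is not given, lengths are those of GENCODE 29 and include every annotated exon.

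**Figure D5:**
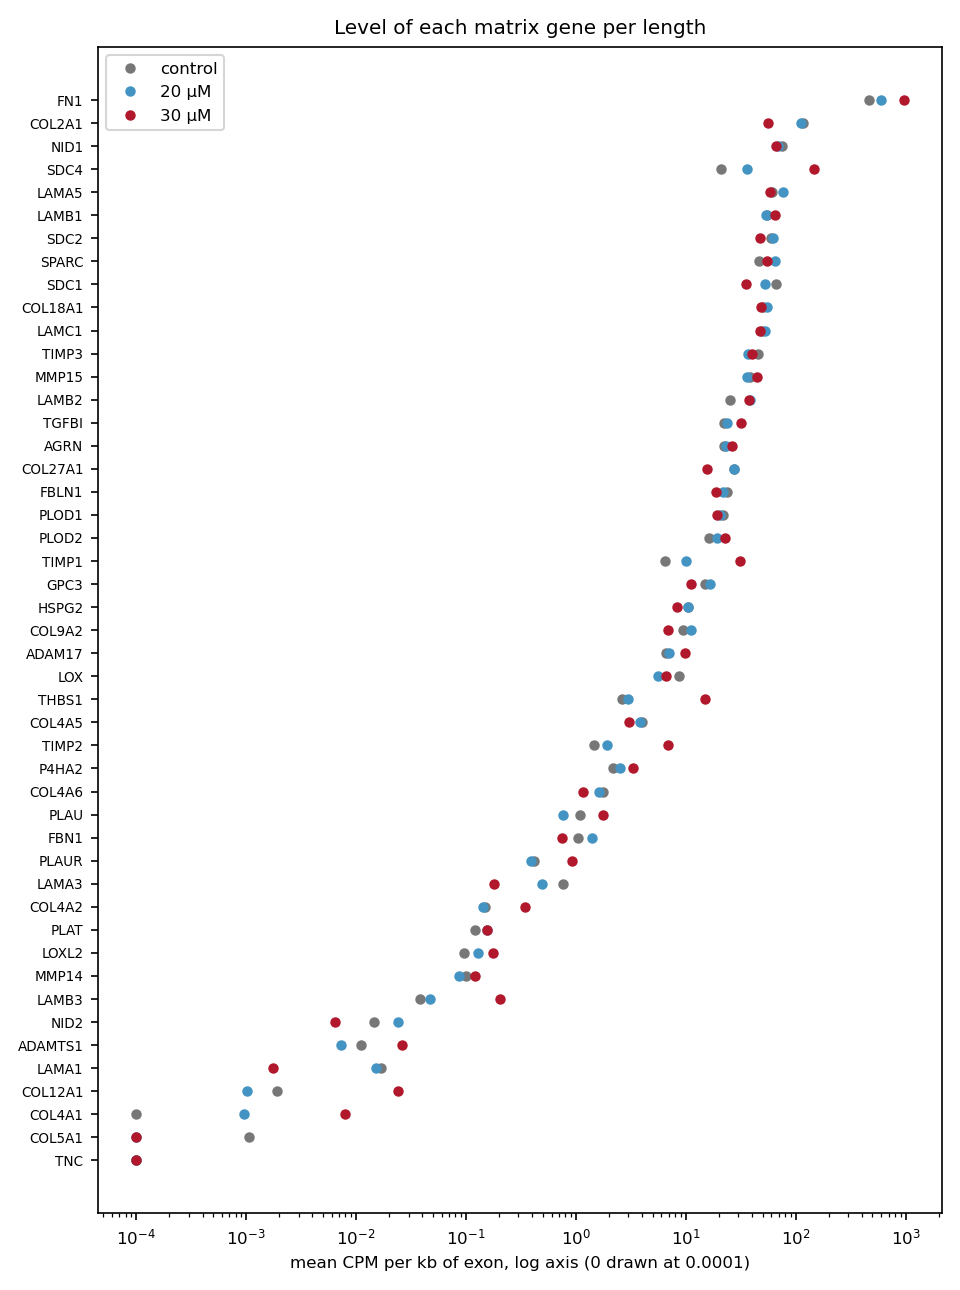
Points are the mean CPM per kb of exon of each of the 47 genes in each group (grey control, blue 20 µM, red 30 µM; n = 3), on a log axis, ordered by the mean of the 9 libraries, with 0 drawn at 0.0001. FN1 is at the top in every group, and the 7 genes that did not pass the filter are at the bottom.

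The 7 genes that were not expressed above the filter were COL4A1, COL5A1, COL12A1, LAMA1, NID2, TNC and ADAMTS1. TNC, the glycoprotein tenascin-C of remodelled stroma, had 0 counts in all 9 libraries. That allows up to 0.112 to 0.142 CPM in a library (3 counts of the library total without the TMM factors, counting error only). COL5A1, a minor fibrillar collagen, had 1 count in all. COL12A1, which binds the surface of collagen fibrils, had counts of 2, 0 and 0 in the control libraries, 1, 0 and 0 at 20 µM and 6, 8 and 7 at 30 µM. LAMA1, the laminin alpha chain of the early embryo, had counts of 7, 5 and 9 in the control libraries, 6, 5 and 7 at 20 µM and 0, 1 and 1 at 30 µM. NID2, the relative of NID1, had at most 9 counts in a library, and the protease ADAMTS1 at most 6. By default HTSeq leaves out a read shared by overlapping genes, so a count near 0 can also depend on the annotation, whose part was not tested.

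A wider list of 114 other matrix, modifying and proteolytic genes had 64 tested. At 30 µM, 25 of these were higher and 14 lower than control, with 25 short of the threshold (median log2 0.021), so that 60.9% passed, beside 60.8% of all genes. At 20 µM, 23 were higher and 8 lower, with 33 short of it (median 0.12), so that 48.4% passed, beside 34.2% of all genes. Between the doses, 21 were higher and 24 lower at 30 µM (median -0.085), so that 70.3% passed, beside 57.0% of all genes. Among genes of at least 5 CPM that rose at 30 µM, SERPINE2, an inhibitor of serine proteases including urokinase, was at 36.9 ± 1.33 CPM at 30 µM, against 12.1 ± 0.437 CPM in controls (SD, n = 3 each; log2 1.60 ± 0.0822, adjusted p = 6.73e-18). VCAN, the large proteoglycan versican, was at 255 ± 5.98 CPM at 30 µM, against 57.8 ± 1.43 CPM in controls (log2 2.14), and LOXL4, a lysyl oxidase relative, was at 11.9 ± 0.611 CPM, against 5.16 ± 0.666 CPM (log2 1.21). The largest falls among genes of at least 5 CPM were in GPC6, a glypican (log2 -0.95), SERPINH1, the collagen chaperone HSP47 (log2 -0.83, 100.5 ± 2.69 CPM at 30 µM against 179 ± 6.44 CPM in controls), COL16A1, a fibril-associated collagen (log2 -0.73), and SULF2, an extracellular heparan sulphate sulphatase (log2 -0.55). Of 13 further metalloproteinase genes 5 were tested, and of 22 further collagens 7 were tested.

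Promoter letters were described for the 38 matrix genes with a RefSeq window. The GC box GGGCGG, on either strand, lay in 31 of 38 (81.6%), beside 68.7% of the windows of 11049 tested genes and 44.6% of all 27305 windows. The AP-1 letters TGANTCA lay in 2 of 38 (5.26%), LAMA3 and PLAUR, beside 4.58% of tested genes and 7.76% of all. The TATA box letters TATAAA lay in none of the 38, beside 5.81% and 12%, and the TEAD letters GGAATG in 6 of 38 (15.8%), beside 11.0% and 14.0%. Among windows of genes that rose at 30 µM, 12 of 16 held a GC box, and among those that fell, 12 of 15 did. A match is a description of these letters, and no match says only that they are not in this window.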

How the data were processed

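The authors deposited whole-number counts, with a table of genes for each library. FastQC, STAR 2.7.10a, HTSeq and hg38 are named, per the submitters' processing notes. For the strand setting and the annotation, nothing is given in the sources used here. The labels name polyA RNA but describe ribosomal depletion of total RNA. Records in no single gene (40.6% to 44.0%) stayed out of library sizes and tests.

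Symbols came from the reference table (62639 of 62703 identifiers), lengths and positions from GENCODE 29. The low-count filter was filterByExpr. A robust quasi-likelihood model with 1 mean for each group was fitted to the 9 libraries in edgeR 4.0.16 (R 4.3.3) after TMM scaling, with an adjusted p threshold of 0.05. The SE is the log2 change over the square root of F. The script was tested on simulated data. Libraries of a group differed by more than sampling noise in every pair (chi-square 2.07 to 7.80 per gene). Alternatives were median-ratio, upper-quartile and no scaling, DESeq2 1.42.0, limma 3.58.1 voom, no filter, a mean of at least 50 counts, only the groups compared, a replicate block and libraries left out. The main model did not pair samples by replicate number.

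The genes, roles and lists were chosen with earlier results of these data known. Values in every library are given, per role, for up to 4 tested genes with the largest change at 30 µM and the 2 most abundant, and for all TIMP, MMP and plasminogen activator genes. From the wider list, the 4 largest rises and falls past the test with a mean of at least 5 CPM were chosen, of which 1 is not reported here.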

Additional observations from a re-analysis of the deposited data

Results flagged for a closer look

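In 5 matrix genes the change against control was past the test at both doses in opposite directions, and the difference between the doses was tested directly as 30 µM against 20 µM. COL9A2 was higher at 20 µM and lower at 30 µM, with a log2 difference of -0.68 (adjusted p = 1.47e-11). LAMA5 had -0.39 (adjusted p = 1.54e-12), FBN1 -0.92 (adjusted p = 1.05e-11) and GPC3 -0.57 (adjusted p = 2.10e-09), all in the same sense. PLAU was lower at 20 µM and higher at 30 µM, with 1.19 (adjusted p = 6.93e-07). All 3 libraries at 30 µM lay beyond all 3 at 20 µM in each of the 5 genes. The calls against control were lost without some single libraries for LAMA5 (at 30 µM), GPC3 and PLAU (at 20 µM), as given with those genes.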

How the results depend on the processing

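Each count of matrix genes past the test stayed within 1.5 times its value under every alternative. At 20 µM against control it was 21, with 16 to 21 when 1 library was left out and 17 to 23 under the other alternatives. At 30 µM against control it was 37, with 34 to 38 and 33 to 37, and between the doses 35, with 33 to 35 and 33 to 36. Over all genes, library size alone gave 3029 higher and 7690 lower between the doses, in place of 4942 and 5099, and 3530 and 8022 at 30 µM against control, in place of 5192 and 5515. It also turned TIMP3 between the doses to log2 -0.089. Of the 40 tested genes, 11 had a call that differed under some alternative at 20 µM, 8 at 30 µM and 8 between the doses. Same-numbered libraries correlated at -0.202 to 0.352 in their deviations, over 0.1 in 4 of 9 pairs. The highest value, 0.352, was between the libraries numbered 3 of the 2 doses. Control 1 correlated best with number 3 of both doses, so the numbers did not line up across all groups, and pairing is not settled. With the replicate number as a block, 21, 36 and 34 matrix genes were past the test. Between the doses, the fall of PLOD1 (log2 -0.091 ± 0.0383, adjusted p = 0.0426) was lost without control 2 (adjusted p = 0.0544), 20 µM 3 (0.145), 30 µM 1 (0.0656), 30 µM 2 (0.165) or 30 µM 3 (0.0679), and NID1 passed the test as lower without 20 µM 1 (adjusted p = 0.0233), with upper-quartile factors (log2 -0.15, 3.71e-04), with library size alone (log2 -0.27, 1.43e-08), among genes of at least 50 counts on average (0.0190) and with only the groups compared (0.0464). At 20 µM against control, DESeq2 lost GPC3 (adjusted p = 0.0631), PLAU (0.0634) and FBLN1 (0.0502) and passed LAMC1 as higher (0.0396), and limma voom lost GPC3 (0.0612) and PLAU (0.0774) and passed COL2A1 (0.0431) and PLOD1 (0.0478) as lower and LAMC1 (0.0382) as higher. At 30 µM, DESeq2 lost LAMA5 (0.0943), LAMC1 (0.181) and LOXL2 (0.0651). Library size alone lost PLOD2 between the doses (0.168). LAMB3, LOXL2, MMP14 and PLAT averaged under 1 CPM, and depth limits what could be detected for them.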
